A study of Homo sapiens with 72 samples.

Results

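Interferon-stimulated genes are the genes whose transcription rises when interferons bind their receptors. A list of 39 of them was followed here, out of 62266 genes in the deposited count table, in 3 immortalized human epithelial cell lines of the lower genital tract. All 39 symbols were found in the table, and all are protein-coding. The members were listed by name and not by a threshold on measured values, though earlier results of these data were known when the list was made.

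The lines were the ectocervical Ect/E6E7 (Ecto), the endocervical End1/E6E7 (Endo) and the vaginal VK2/E6E7 (VK2) cells, which all carry the E6 and E7 oncogenes of a papillomavirus, so the untreated cells carry them too. A pretreatment of 4 h with the diamine putrescine (4 mM, PUT) or with a longer polyamine at 400 µM, which was spermidine (SPD) or spermine (SPM), was compared with no treatment (NT). The cells were then kept for 24 h with live Gardnerella vaginalis (GV, 10000000 CFU per well) or without bacteria (noGV). This gave the groups PUT+GV, SPD+GV, SPM+GV, NT+GV, PUT+noGV, SPD+noGV, SPM+noGV and NT+noGV, each with 3 libraries per line and 72 libraries in all. The sources used here do not say whether the 3 libraries of a group came from separate cultures, so every p-value measures only how far these libraries scatter.

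Interferons are secreted proteins that signal through a pair of receptor chains and the kinases JAK1 and TYK2. The kinases activate STAT2, which joins IRF9 in a complex that binds a DNA element called the interferon-stimulated response element (ISRE) in the promoters of target genes. Type I and type III interferons use this route in epithelia, and some target genes can also be switched on directly by the related factors IRF3, IRF7 and IRF1, or through another element called GAS.

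Total counts ran from 20152143 to 42767996 per library with a median of 31872238.5. Levels are given as CPM, the counts scaled to a common library size with TMM factors within each line, and are compared between samples for 1 gene at a time. "Rose" and "fell" are used for an adjusted p under 0.05 in edgeR's quasi-likelihood test, with Benjamini-Hochberg adjustment over all genes tested in the line, and log2 fold changes are given ± SE. The 39 members were tested in Ecto and Endo cells and 38 in VK2 cells, where XAF1, an inhibitor of the apoptosis inhibitor XIAP, had 0 to 6 counts per library. In RNA from whole wells, fewer cells of a kind and less RNA per cell cannot be told apart. The epithelial genes KRT5 (2400.0 CPM or more), CDH1 (203 CPM or more) and EPCAM (111 CPM or more) were read in every library of every line. The squamous markers KRT13 and KRT4 were low. KRT13 was at 0.323 to 5.71, 7.31 to 60.3 and 1.65 to 12.1 CPM in Ecto, Endo and VK2 libraries. KRT4 had 0 counts in 8 of 24 Ecto libraries and at most 5.39, 2.47 and 2.16 CPM in the same order of lines. MUC5B, a mucin of endocervical glands, had 0 to 15 counts per library in Endo cells, so this marker was at or near 0 in the line labelled endocervical. The other columnar markers went both ways, and only KRT7 and PAX8 were clearly higher in Endo cells than in the other lines. KRT7 was at 644 to 1574 CPM in Endo, 7.77 to 23.4 CPM in Ecto and 1.63 to 6.58 CPM in VK2 libraries, and PAX8 at 37.6 to 72.4, 8.49 to 23.8 and 2.51 to 8.56 CPM in the same order of lines. KRT18 was lowest in Endo cells, at 197 to 377, 722.5 to 1873 and 463 to 683 CPM in that order. KRT8 was at 115 to 533, 1108 to 2506 and 405 to 828 CPM. The Endo range of EPCAM overlapped that of VK2 cells, and the Endo range of KRT19 overlapped that of Ecto cells. Columnar marker sums in NT+noGV libraries were 3712 to 3922 CPM in Endo and 4684 to 4953 CPM in Ecto cells. Of 8 leukocyte markers, PTPRC, CD3E and LILRA4 stayed under 10 counts in every library of all lines, while the summed level was 71.98 to 74.2 CPM in NT+GV and 56.2 to 57.4 CPM in NT+noGV libraries of Ecto cells, 77.4 to 80.8 and 37.8 to 41.03 CPM in Endo cells, and 111 to 121 and 68.6 to 73.5 CPM in VK2 cells. CD68, a lysosomal protein, made up most of that sum. Of 6 fibroblast markers, COL3A1 stayed under 10 counts in every library, and the summed level in NT+GV against NT+noGV libraries was 26.9 to 31.6 against 15.6 to 17.2 CPM for Ecto, 39.2 to 42.1 against 28.9 to 33.3 CPM for Endo and 34.7 to 38.2 against 24.5 to 26.3 CPM for VK2 cells. COL1A2 and LUM also stayed under 10 counts in Ecto and Endo cells, and DCN in Endo cells. COL1A1 made up most of the fibroblast sum in each line, at 14.3 to 56.1 CPM in Ecto, 25.8 to 68.6 CPM in Endo and 21.2 to 56.98 CPM in VK2 libraries. The part of such RNA in the results that follow was not tested.

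Promoter windows of RefSeq genes on GRCh38.p14, from 250 bases before to 50 bases after the start, were matched by symbol to 32 of the 39 members (44 windows). The ISRE core was searched on both strands as GAAA, any 2 bases and GAAA again. It was present in 26 of the 44 windows (59.1%), which belonged to 22 of the 32 members, and in 3.57% of 35116 windows over all genes. The following sequences are the 160 bases before the start of 4 members that fell with GV in all 3 lines (IFIT1, IFIT3, ISG15 and HERC5) and of 4 members that rose with GV in Endo and VK2 cells (IFI6, IFI27, IFITM1 and BST2). They show what the ISRE core looks like in members of both kinds. Each is printed 5′ to 3′ along the strand named with it, with the matched letters in capitals, where adjoining capitals can hold overlapping matches and TTTC, 2 bases and TTTC are the core read on the other strand.
IFIT1: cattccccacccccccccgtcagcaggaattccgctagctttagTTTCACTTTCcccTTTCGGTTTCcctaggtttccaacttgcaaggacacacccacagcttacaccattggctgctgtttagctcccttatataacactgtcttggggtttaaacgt
IFIT3: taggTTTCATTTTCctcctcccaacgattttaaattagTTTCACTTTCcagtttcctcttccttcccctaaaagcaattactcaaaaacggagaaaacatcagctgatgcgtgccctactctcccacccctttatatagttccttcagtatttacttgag
ISG15: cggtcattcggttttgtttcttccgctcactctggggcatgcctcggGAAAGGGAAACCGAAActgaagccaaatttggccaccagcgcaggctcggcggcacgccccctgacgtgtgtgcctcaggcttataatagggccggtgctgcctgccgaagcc
HERC5: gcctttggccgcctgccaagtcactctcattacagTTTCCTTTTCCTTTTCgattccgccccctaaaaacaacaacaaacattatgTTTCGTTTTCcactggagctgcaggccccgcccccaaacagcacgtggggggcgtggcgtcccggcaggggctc
IFI6: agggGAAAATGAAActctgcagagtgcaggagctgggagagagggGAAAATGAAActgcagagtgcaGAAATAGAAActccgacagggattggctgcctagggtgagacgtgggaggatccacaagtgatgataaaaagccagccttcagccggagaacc
IFI27: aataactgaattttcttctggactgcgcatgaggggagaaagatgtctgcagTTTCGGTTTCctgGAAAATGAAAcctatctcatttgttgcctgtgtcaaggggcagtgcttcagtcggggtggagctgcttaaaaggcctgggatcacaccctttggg
IFITM1: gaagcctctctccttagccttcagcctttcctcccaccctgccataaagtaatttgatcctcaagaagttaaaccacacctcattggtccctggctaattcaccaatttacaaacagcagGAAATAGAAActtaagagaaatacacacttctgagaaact
BST2: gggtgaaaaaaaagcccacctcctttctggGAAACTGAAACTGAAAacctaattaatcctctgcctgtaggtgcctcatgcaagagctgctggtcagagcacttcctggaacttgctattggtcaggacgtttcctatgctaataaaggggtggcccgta
On GRCh38.p14 the printed stretches lie at chr10:89392463-89392622 (plus strand) for IFIT1, chr10:89327837-89327996 (plus strand) for IFIT3, chr1:1013337-1013496 (plus strand) for ISG15, chr4:88456959-88457118 (plus strand) for HERC5, chr1:27672193-27672352 (minus strand) for IFI6, chr14:94110576-94110735 (plus strand) for IFI27, chr11:313880-314039 (plus strand) for IFITM1 and chr19:17405631-17405790 (minus strand) for BST2. The HERC5 stretch held 3 matches, IFI6 also 3, and IFITM1 only 1.

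The 8 members that fell with GV in all 3 lines included 6 with a window, and all 6 windows held the ISRE core (HERC5, IFI44, IFIH1, IFIT1, IFIT3 and ISG15). The 15 members that rose in Endo and VK2 cells included 12 with a window, and 9 of those held it. The GAS core, searched as TTCNNNGAA, was in windows of 10 members, and in 25% of the 44 windows against 7.66% of all windows. None of the 6 members that fell in all lines had a GAS match, while 5 of the 12 did (BST2, IFI27, IFI35, IFITM1 and PARP14). These are few members, and a link between GAS matches and direction was not tested. An NF-kB element, searched as GGGA, any 2 bases and TTCC, was found in windows of 2 members, IFIH1 and OAS3 (4.5% of the 44 windows, against 1.61% of all windows). In the window nearest to the 5′ end of each member, an ISRE core and a GAS match shared bases in 4 members (BST2, EPSTI1, IFI27 and IFITM1), and neither shared bases with an NF-kB match. Neighbouring genes shared parts of their windows, with 165 bases common to CMPK2 and RSAD2 and 137 to DTX3L and PARP9, so these pairs are not separate counts. A match describes the letters and is not a measured site.

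**Figure D1:**
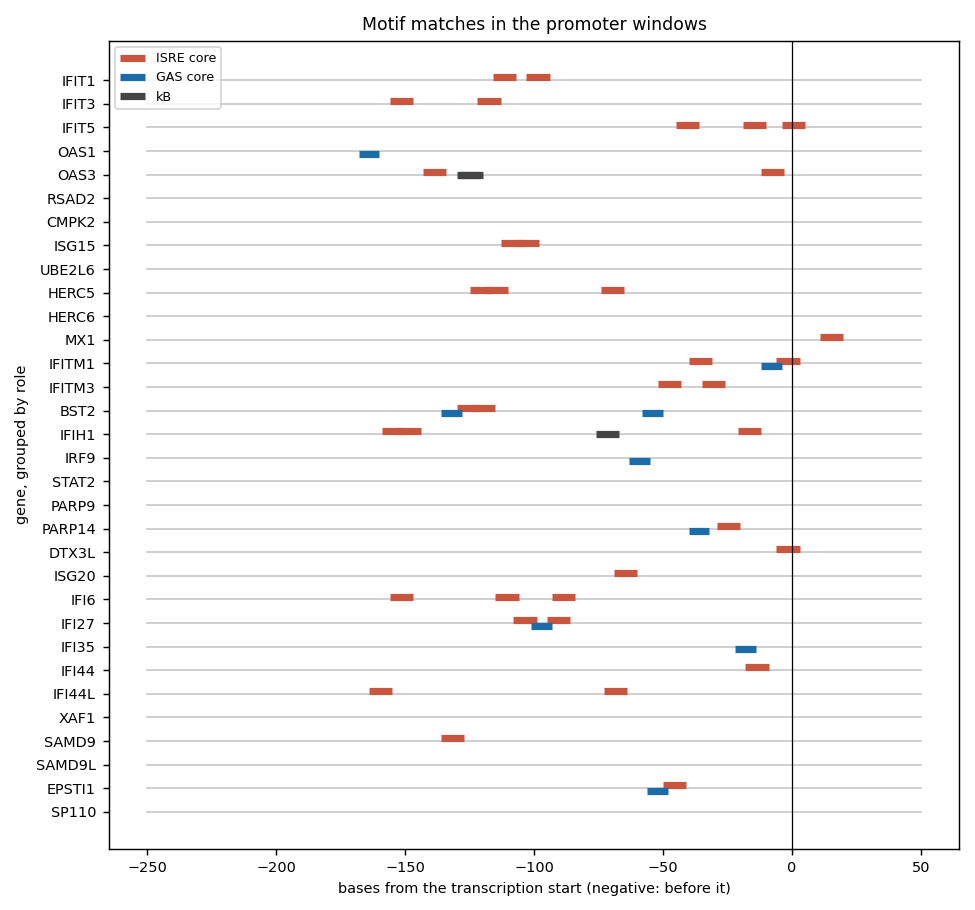
Positions of the ISRE core, GAS core and NF-kB matches in the promoter window nearest to the 5′ end of each matched member; the x axis is the distance in bases from the transcription start (from 250 before to 50 after), and each mark is a match. In these single windows ISRE core matches are seen in 20 members, GAS matches in 8 and NF-kB matches in 2.

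Without bacteria and polyamine, the lines differed in their levels of most members, as they did for most genes tested. Line and RNA preparation cannot be told apart in these comparisons. In NT+noGV libraries IFIT1, which binds viral RNA that lacks a normal cap, averaged 45.1 ± 3.33, 131 ± 4.87 and 54.5 ± 4.84 CPM for Ecto, Endo and VK2 cells (SD, n = 3 libraries each). ISG15, a ubiquitin-like modifier, averaged 38.8 ± 1.01, 188 ± 8.62 and 60.3 ± 5.14 CPM in the same order of lines. Endo cells were therefore the highest for both genes, with no overlap between lines. The CPM were scaled within each line, so the tests between lines come from 1 model of all 72 libraries. In it, 11 members were higher and 19 lower in Ecto than in Endo cells (31.9% and 32% of all genes tested), 18 were higher and 14 lower in Ecto than in VK2 cells (31.8% and 32%), and 25 were higher and 8 lower in Endo than in VK2 cells (29.3% and 30.4%). The order changed from member to member. RSAD2, the enzyme viperin, averaged 8.19 ± 0.151, 26.4 ± 2.78 and 0.9899 ± 0.00743 CPM for Ecto, Endo and VK2 cells. IFI27, a small hydrophobic protein of mitochondria, was read at 51.1 ± 3.52, 50.5 ± 4.11 and 1.85 ± 0.254 CPM, so that VK2 cells were below both others (log2 fold change Endo over VK2 4.69 ± 0.14, adjusted p = 9.90e-35 by edgeR) and Ecto and Endo cells differed by less than 1 SD of the Ecto libraries. IFITM3, which blocks the fusion of viruses with endosomes, averaged 183 ± 5.48, 36.9 ± 0.3997 and 98.7 ± 3.94 CPM and was lowest in Endo cells.

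The first question was what GV does to these genes in cells without polyamine. In NT+GV against NT+noGV libraries the members split. IFIT1, IFIT2 and IFIT3, ISG15 and its ligase HERC5, the nucleic acid sensor IFIH1, IFI44 and OASL fell in all 3 lines, and IFI6 rose in all 3. How many of all genes passed in the same direction in all 3 lines, or in opposite directions, was not counted. Counts of members over several lines in this report thus have no share of all genes beside them. In Ecto cells 20 of 39 members fell and 1 rose, where 23.7% of all genes tested fell and 20.9% rose. In Endo cells 15 fell and 18 rose (28.7% and 25.7% of all genes), and in VK2 cells 9 of 38 fell and 22 rose (12.5% and 13.9%). The median log2 fold change of the members came to -0.20, 0.14 and 0.33 for Ecto, Endo and VK2 cells, while the median of all genes stayed within 0.08 of 0 in every comparison made here. At 2-fold or more, 7, 9 and 5 members fell in Ecto, Endo and VK2 cells (0.719%, 2.3% and 0.493% of all genes tested), and 1 rose in Endo cells (6.98%) and 2 in VK2 cells (1.74%).

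**Figure D2:**
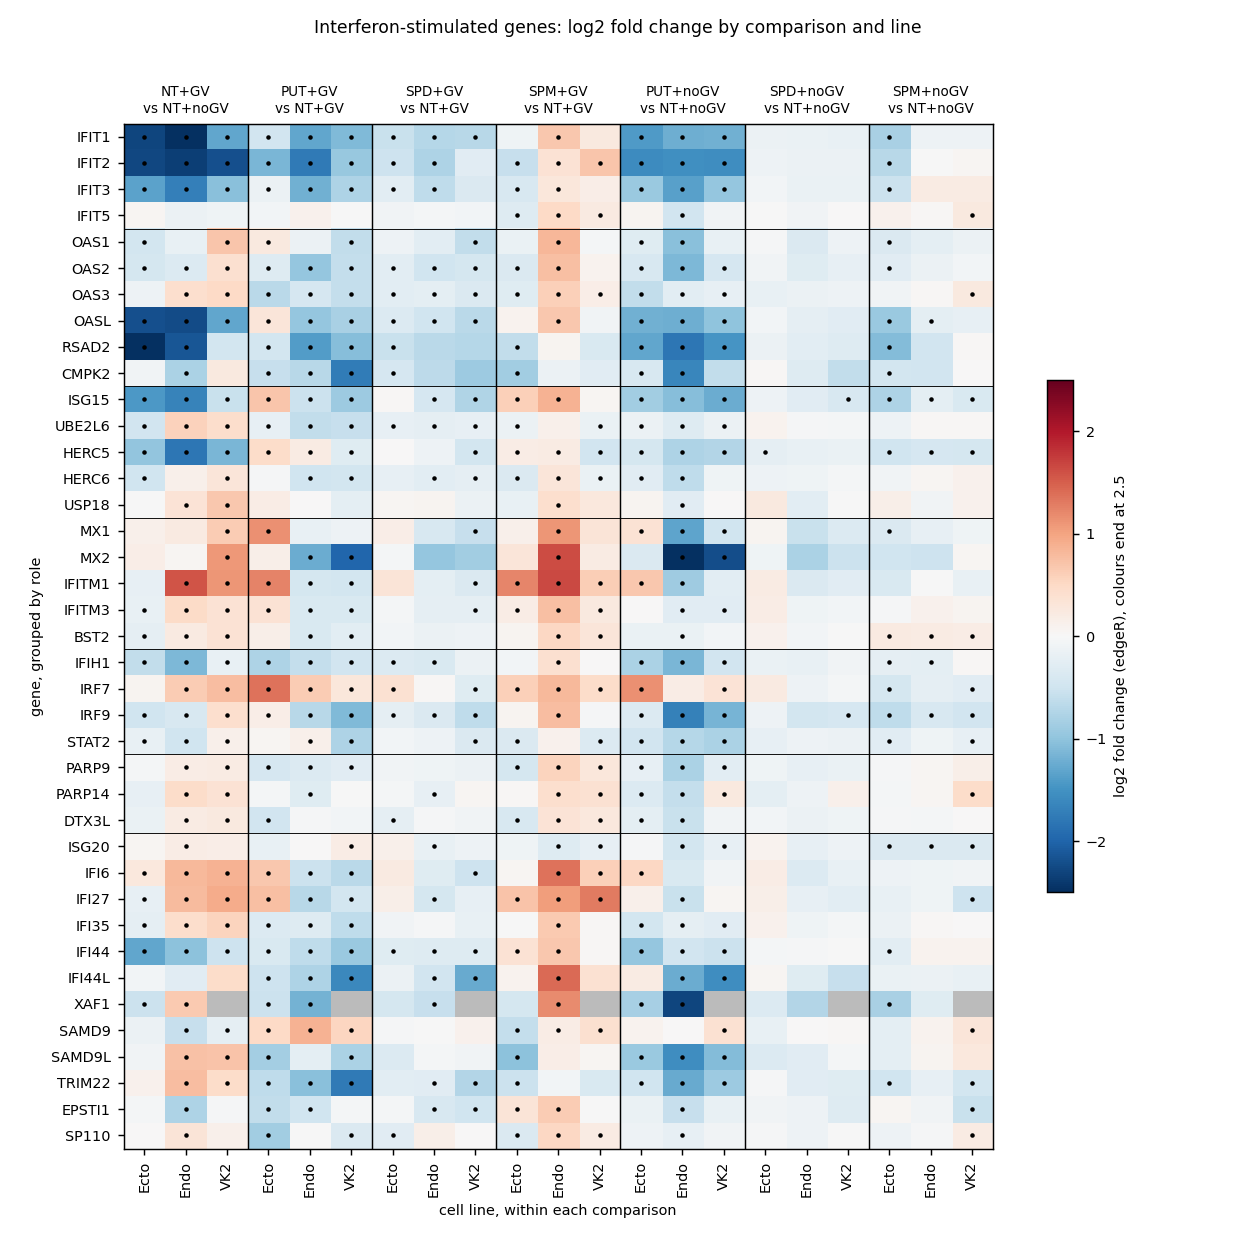
Log2 fold change of the 39 members (down the page) in 7 comparisons in each of the 3 lines (across), where red is higher and blue lower in the group named first, a dot marks an adjusted p under 0.05, and grey marks XAF1, which was not tested in VK2 cells. IFIT1, IFIT2, IFIT3, OASL, ISG15 and HERC5 are blue under GV in every line, and the SPM+GV column of Endo cells is red with a dot for 32 of 39 members.

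The IFIT family, whose proteins bind foreign RNA and hold back its translation, had 4 members in the list, of which 3 fell in every line. In Ecto cells IFIT1 had 10.5, 7.44 and 9.68 CPM in NT+GV libraries, against 48.7, 42.1 and 44.4 CPM in NT+noGV libraries (log2 fold change -2.29 ± 0.10, adjusted p = 1.33e-15). IFIT1 had 22.6, 18.8 and 25.7 CPM in NT+GV libraries, against 131, 125 and 135 CPM in NT+noGV libraries (log2 fold change -2.55 ± 0.08, adjusted p = 1.54e-16) in Endo cells. In VK2 cells it had 23.7, 19.9 and 22.3 CPM in NT+GV libraries, against 52.6, 50.9 and 59.96 CPM in NT+noGV libraries (log2 fold change -1.31 ± 0.13, adjusted p = 3.92e-07). Every NT+GV library lay below every NT+noGV library of its line. The level of IFIT2, a partner of IFIT1, was 12.8, 9.82 and 11.5 CPM in NT+GV libraries, against 57.5, 52.4 and 56.2 CPM in NT+noGV libraries (log2 fold change -2.28 ± 0.10, adjusted p = 4.92e-15) in Ecto cells. For Endo cells IFIT2 stood at 35.9, 28.2 and 36.9 CPM in NT+GV libraries, against 172, 171 and 170.2 CPM in NT+noGV libraries (log2 fold change -2.35 ± 0.09, adjusted p = 2.11e-13). IFIT2 in VK2 cells stood at 14.4, 15.3 and 15.5 CPM in NT+GV libraries, against 67.4, 65.6 and 74.1 CPM in NT+noGV libraries (log2 fold change -2.20 ± 0.09, adjusted p = 4.18e-14). Again no NT+GV library reached a NT+noGV library. IFIT3, which holds the IFIT complex together, fell by 1.34, 1.71 and 1.05 on the log2 scale in Ecto, Endo and VK2 cells (adjusted p = 6.21e-15, 1.08e-13 and 4.16e-06 by edgeR). IFIT5, the remaining member of the family in the list, did not pass in any line, with log2 fold changes of 0.05, -0.16 and -0.11.

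**Figure D3:**
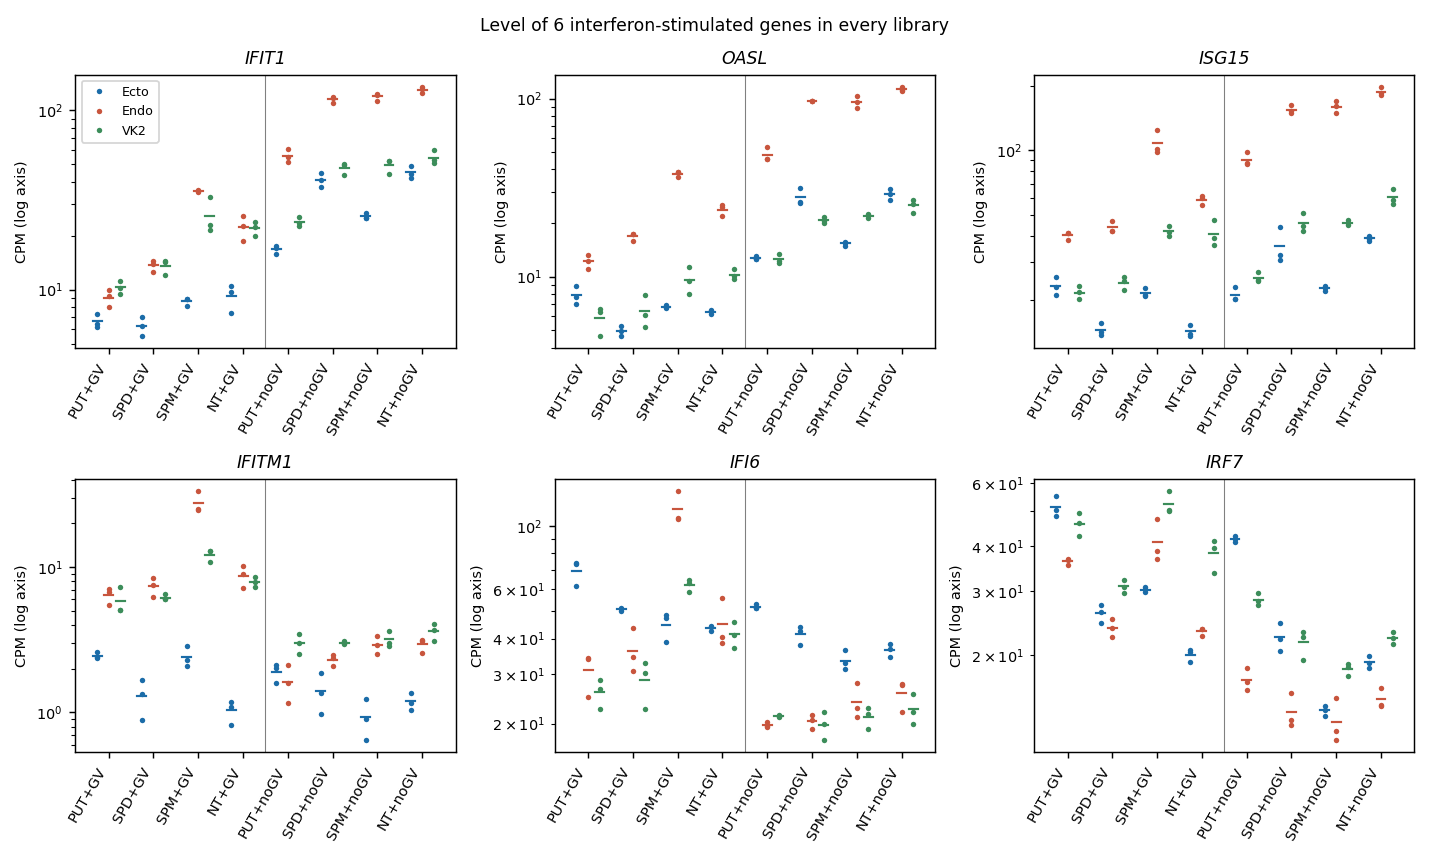
CPM on a log axis of IFIT1, OASL, ISG15, IFITM1, IFI6 and IRF7 in each library of the 8 groups, left to right with GV first, for the 3 lines; points are libraries and bars are the means of 3. IFIT1 and OASL are lower in NT+GV than in NT+noGV libraries in every line, IFI6 is higher, and IFITM1 in Endo cells is highest in SPM+GV libraries (24.8 to 33.3 CPM).

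The OAS genes, which make the second messenger that activates RNase L, and the viperin gene did not move together. OASL, a relative without that enzyme activity that promotes signalling by RIG-I, fell in all lines, with 6.49, 6.403 and 6.18 CPM in NT+GV libraries, against 31.2, 26.9 and 29.2 CPM in NT+noGV libraries (log2 fold change -2.20 ± 0.08, adjusted p = 1.50e-16) in Ecto cells. The Endo libraries gave OASL levels of 24.5, 21.8 and 25.2 CPM in NT+GV libraries, against 116, 112 and 110.0 CPM in NT+noGV libraries (log2 fold change -2.25 ± 0.06, adjusted p = 2.56e-21). In VK2 cells OASL levels were 11.02, 9.66 and 10.04 CPM in NT+GV libraries, against 25.5, 22.8 and 27.1 CPM in NT+noGV libraries (log2 fold change -1.29 ± 0.12, adjusted p = 2.30e-08). RSAD2, which turns CTP into a chain terminator, fell in Ecto and Endo cells, with 1.38, 1.31 and 1.496 CPM in NT+GV libraries, against 8.06, 8.35 and 8.14 CPM in NT+noGV libraries (log2 fold change -2.55 ± 0.14, adjusted p = 3.54e-13) in Ecto cells. In Endo cells RSAD2 had 5.74, 3.43 and 8.92 CPM in NT+GV libraries, against 25.9, 23.9 and 29.4 CPM in NT+noGV libraries (log2 fold change -2.14 ± 0.20, adjusted p = 7.06e-08). RSAD2 did not pass in VK2 cells (log2 fold change -0.45 ± 0.28, adjusted p = 0.259), where it had 0.725, 0.84 and 0.629 CPM in NT+GV and 0.996, 0.982 and 0.992 CPM in NT+noGV libraries. OAS3 rose in Endo cells (0.43 ± 0.04) and VK2 cells (0.51 ± 0.05) and did not pass in Ecto cells (-0.12 ± 0.08). OAS1 fell in Ecto cells (-0.47) and rose in VK2 cells (0.69), and OAS2 fell in Ecto and Endo cells (-0.43 and -0.34) and rose in VK2 cells (0.40). CMPK2, a mitochondrial nucleotide kinase that shares its promoter region with RSAD2, fell in Endo cells only (-0.78 ± 0.22).

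ISG15 and the enzymes that attach it to proteins moved in different directions. ISG15 had 13.97, 13.7 and 15.4 CPM in NT+GV libraries, against 39.9, 37.9 and 38.6 CPM in NT+noGV libraries (log2 fold change -1.44 ± 0.10, adjusted p = 1.64e-11) in Ecto cells. Its levels in Endo cells were 59.98, 55.6 and 61.1 CPM in NT+GV libraries, against 180.3, 197 and 186 CPM in NT+noGV libraries (log2 fold change -1.67 ± 0.08, adjusted p = 6.21e-13). In VK2 cells ISG15 had 47.3, 39.2 and 36.1 CPM in NT+GV libraries, against 56.1, 58.8 and 66.03 CPM in NT+noGV libraries (log2 fold change -0.56 ± 0.09, adjusted p = 5.06e-05). HERC5, the ligase for ISG15, fell by 0.99 in Ecto and by 1.80 in Endo cells on the log2 scale, and in VK2 cells it had 30.5, 22.2 and 23.8 CPM in NT+GV libraries, against 55.5, 54.97 and 59.2 CPM in NT+noGV libraries (log2 fold change -1.15 ± 0.09, adjusted p = 1.10e-08). For ISG15 and HERC5 the groups did not overlap in any line. UBE2L6, which carries ISG15 to the ligase, fell in Ecto cells (log2 fold change -0.48 ± 0.06, adjusted p = 3.99e-07) and rose in Endo (log2 fold change 0.58 ± 0.06, adjusted p = 4.59e-10) and VK2 cells (log2 fold change 0.45 ± 0.05, adjusted p = 1.10e-08). USP18, which removes ISG15 and also holds back the type I receptor, rose in Endo (0.34) and VK2 cells (0.67) and did not pass in Ecto cells (-0.02). HERC6, a relative of HERC5, was called in opposite directions between lines, with -0.50, 0.14 and 0.31 in Ecto, Endo and VK2 cells.

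Several members whose proteins act at membranes rose in Endo and VK2 cells. IFITM1, which blocks virus entry at the cell surface, had 7.19, 8.92 and 10.1 CPM in NT+GV libraries, against 2.57, 3.101 and 3.17 CPM in NT+noGV libraries (log2 fold change 1.57 ± 0.18, adjusted p = 2.04e-07) in Endo cells. In VK2 cells IFITM1 levels were 7.95, 8.54 and 7.32 CPM in NT+GV libraries, against 3.7, 3.09 and 4.09 CPM in NT+noGV libraries (log2 fold change 1.11 ± 0.13, adjusted p = 3.92e-08). It was not called in Ecto cells (-0.20 ± 0.25), and the NT+GV libraries lay above the NT+noGV libraries in the other 2 lines. IFITM1 and IFITM3 are near-identical in parts, so the split of reads between them is uncertain. IFITM3 fell in Ecto (-0.19 ± 0.07) and rose in Endo (0.47 ± 0.08) and VK2 cells (0.36 ± 0.05), as did BST2, the tether that keeps virus particles on the cell (-0.22 ± 0.08, 0.23 ± 0.05 and 0.37 ± 0.05). MX2, a dynamin-like GTPase that blocks the nuclear entry of some viruses, had 5.39, 5.55 and 3.55 CPM in NT+GV libraries, against 2.25, 1.78 and 2.68 CPM in NT+noGV libraries (log2 fold change 1.08 ± 0.38, adjusted p = 0.0435) in VK2 cells. MX1, its relative, rose in VK2 cells (log2 fold change 0.63 ± 0.15, adjusted p = 0.00377) and did not pass in Ecto (0.12) or Endo cells (0.22). MX2 in VK2 cells was high in every NT+GV library, and the groups did not overlap.

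IFI6 and IFI27 belong to a family of small hydrophobic proteins. IFI6, which guards cells against apoptosis and some virus replication, had 43.9, 44.1 and 42.6 CPM in NT+GV libraries, against 34.5, 38.3 and 36.7 CPM in NT+noGV libraries (log2 fold change 0.26 ± 0.08, adjusted p = 0.00827) in Ecto cells. The IFI6 levels in Endo cells were 38.6, 40.7 and 55.5 CPM in NT+GV libraries, against 22.1, 27.4 and 27.7 CPM in NT+noGV libraries (log2 fold change 0.80 ± 0.17, adjusted p = 6.26e-04). Those in VK2 cells were 41.3, 45.7 and 36.96 CPM in NT+GV libraries, against 21.97, 20 and 25.5 CPM in NT+noGV libraries (log2 fold change 0.87 ± 0.13, adjusted p = 5.26e-05). The groups did not overlap in any of the 3 lines, and the rise in Ecto cells was the smallest. In Ecto cells the call for IFI6, the only member that rose there, was lost when NT+noGV replicate 1 was left out (0 members rose). IFI27 had 78.9, 84.7 and 97.8 CPM in NT+GV libraries, against 45.7, 53.04 and 52.6 CPM in NT+noGV libraries (log2 fold change 0.79 ± 0.12, adjusted p = 1.77e-05) in Endo cells. In VK2 cells IFI27 reached 3.49, 3.69 and 3.46 CPM in NT+GV libraries, against 1.59, 1.85 and 2.101 CPM in NT+noGV libraries (log2 fold change 0.94 ± 0.17, adjusted p = 5.34e-05). TRIM22, a RING protein of the nucleus and cytoplasm that restricts several viruses, had 10.7, 11.6 and 13.98 CPM in NT+GV libraries, against 7.69, 7.31 and 6.37 CPM in NT+noGV libraries (log2 fold change 0.77 ± 0.10, adjusted p = 4.77e-08) in Endo cells. All these NT+GV libraries lay above their NT+noGV libraries. IFI44, a cytoplasmic protein with a GTP-binding motif, fell by 1.30, 1.02 and 0.52 on the log2 scale in Ecto, Endo and VK2 cells, and its relative IFI44L did not pass in any line. XAF1 fell in Ecto cells (-0.54 ± 0.20) and rose in Endo cells (0.65 ± 0.17).

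Among the members that carry the signal, IFIH1 (MDA5, a sensor of long double-stranded RNA) fell by 0.61, 1.12 and 0.18 on the log2 scale in Ecto, Endo and VK2 cells. IRF9, the DNA-binding part of the STAT complex, fell in Ecto (log2 fold change -0.49 ± 0.06, adjusted p = 4.63e-07) and Endo cells (log2 fold change -0.39 ± 0.09, adjusted p = 0.00139) and rose in VK2 cells (log2 fold change 0.41 ± 0.07, adjusted p = 8.64e-05). STAT2 did the same (-0.18, -0.49 and 0.13). IRF7, the factor that amplifies interferon production, rose in Endo (0.63 ± 0.10) and VK2 cells (0.77 ± 0.07) and did not pass in Ecto cells (0.07 ± 0.06). PARP9, its partner DTX3L, and PARP14, which attach ADP-ribose or ubiquitin to proteins, rose in Endo and VK2 cells by 0.18 to 0.46 and did not pass in Ecto cells. SAMD9 and SAMD9L, neighbouring genes whose proteins hold back translation in infected cells, moved apart: SAMD9 fell in Endo (-0.59) and VK2 cells (-0.22), where SAMD9L rose (0.73 and 0.71).

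**Figure D4:**
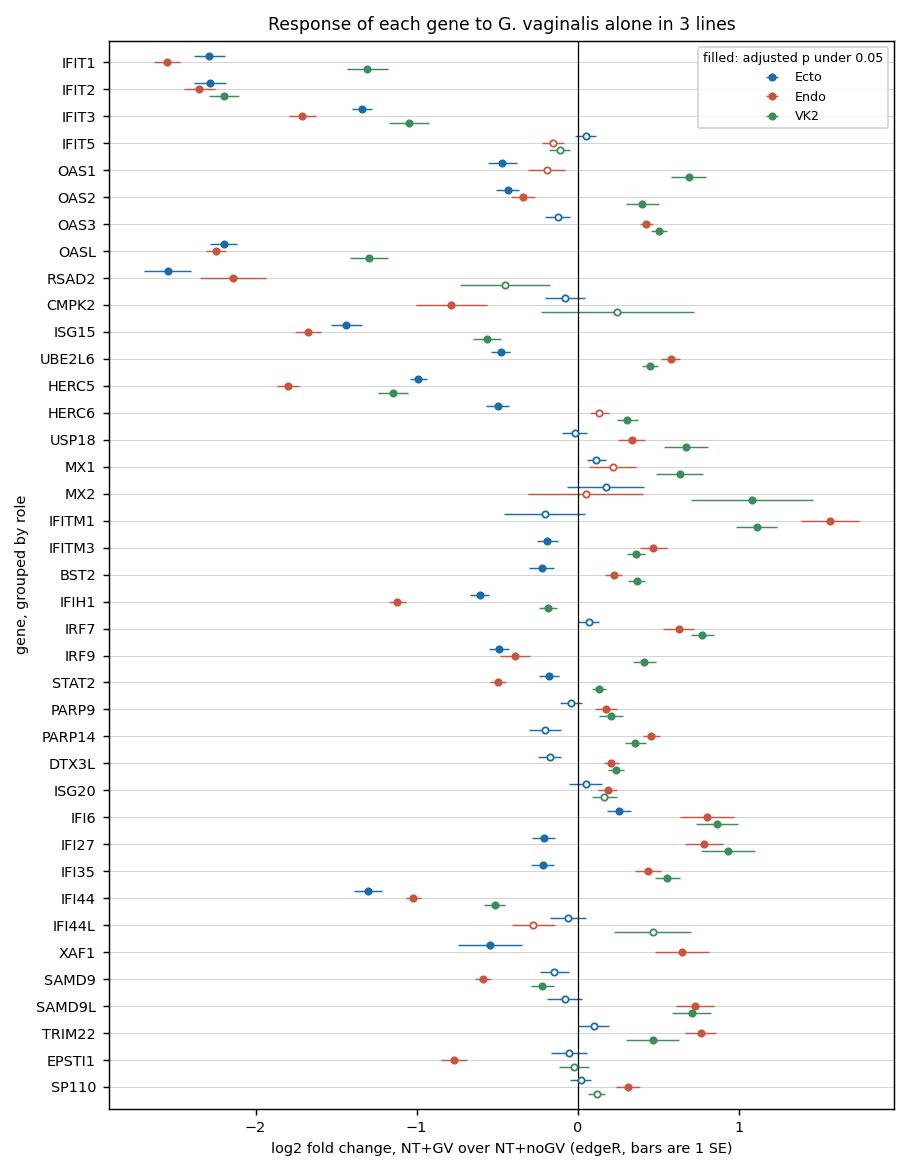
Log2 fold change ± 1 SE of each tested member in NT+GV against NT+noGV libraries, in 1 panel with genes down the page and the 3 lines as colours within each gene row. Filled points passed an adjusted p of 0.05. The points run from -2.55 to 0.26 in Ecto cells, -2.55 to 1.57 in Endo cells and -2.20 to 1.11 in VK2 cells.

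The response to GV was compared between lines with an interaction term in the model of all 72 libraries. It was higher in Ecto than in Endo cells for 6 members and lower for 17 (13.5% and 14.5% of all genes tested), higher in Ecto than in VK2 cells for 0 and lower for 25 (11.9% and 15.6%), and higher in Endo than in VK2 cells for 0 and lower for 15 (11.3% and 14.4%). With 1 library left out, 1 member passed in the higher direction for Ecto against VK2 cells (VK2 NT+GV replicate 1) or Endo against VK2 cells (Endo NT+noGV replicate 3). In that direction 0 members passed for Ecto and 1 for Endo against VK2 cells at an unadjusted p under 0.05, and DESeq2 gave 0 and 1. The difference between Ecto and Endo cells was -1.04 ± 0.08 for UBE2L6 (adjusted p = 3.26e-17 by edgeR) and -1.76 ± 0.30 for IFITM1 (adjusted p = 4.00e-06). HERC5 went the other way (0.82 ± 0.10), since it fell further in Endo cells. IFIT1 fell less in VK2 cells than in Ecto (-0.95 ± 0.16) and Endo cells (-1.23 ± 0.15), and ISG15 likewise (-0.85 ± 0.14 and -1.10 ± 0.13). The share of all genes with opposite calls between lines was not counted. In all, 11 members passed in opposite directions in at least 1 pair of lines: BST2, HERC6, IFI27, IFI35, IFITM3, IRF9, OAS1, OAS2, STAT2, UBE2L6 and XAF1. Of these, BST2, IFI27, IFI35, IFITM3 and UBE2L6 fell in Ecto cells and rose in both other lines.

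Putrescine before GV lowered most members in Endo and VK2 cells. In Ecto cells members went both ways, and the number that rose was near the share of all genes. In PUT+GV against NT+GV libraries 27 of 39 members fell and 4 rose in Endo cells (28.2% and 27.9% of all genes tested), 29 of 38 fell and 3 rose in VK2 cells (31.4% and 29%), and 19 fell and 12 rose in Ecto cells (24.9% and 31.5%). The median log2 fold change of the members was -0.50, -0.58 and -0.15 in Endo, VK2 and Ecto cells. The 14 that fell in every line were CMPK2, IFI35, IFI44, IFI44L, IFIH1, IFIT1, IFIT2, IFIT3, OAS2, OAS3, PARP9, RSAD2, TRIM22 and UBE2L6, and IRF7 and SAMD9 rose in every line. The share of all genes that fell in every line was not counted. CMPK2 had only 1 to 16 counts per library in VK2 cells, and its call there gives no support for a fall. The PUT, SPD and SPM comparisons with GV share the NT+GV libraries, so they are not independent of each other. Fibroblast marker sums, which were mostly COL1A1, were higher in PUT+GV than in NT+GV libraries. They were 52.7 to 56.9 against 26.9 to 31.6 CPM for Ecto, 62.96 to 69.4 against 39.2 to 42.1 CPM for Endo and 61.15 to 62.5 against 34.7 to 38.2 CPM for VK2 cells. Leukocyte marker sums were higher in Ecto cells, at 106 to 111 CPM in PUT+GV against 71.98 to 74.2 CPM in NT+GV libraries, and overlapped in Endo (72.7 to 79.4 against 77.4 to 80.8 CPM) and VK2 cells (108 to 119 against 111 to 121 CPM). Their part in these results was not tested.

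IFIT2 in Ecto cells had 5.45, 3.95 and 5.96 CPM in PUT+GV libraries, against 12.8, 9.82 and 11.5 CPM in NT+GV libraries (log2 fold change -1.15 ± 0.12, adjusted p = 1.02e-08). In Endo cells it had 10.4, 8.95 and 10.3 CPM in PUT+GV libraries, against 35.9, 28.2 and 36.9 CPM in NT+GV libraries (log2 fold change -1.77 ± 0.12, adjusted p = 4.53e-10). IFIT1 in Endo cells had 9.198, 7.96 and 9.899 CPM in PUT+GV libraries, against 22.6, 18.8 and 25.7 CPM in NT+GV libraries (log2 fold change -1.31 ± 0.10, adjusted p = 6.36e-10). Each PUT+GV library lay below each NT+GV library. RSAD2 in Endo cells had 2.103, 2.13 and 2.61 CPM in PUT+GV libraries, against 5.74, 3.43 and 8.92 CPM in NT+GV libraries (log2 fold change -1.39 ± 0.27, adjusted p = 3.33e-04). MX2 in Endo cells had 0.0942, 0.539 and 0.234 CPM in PUT+GV libraries, against 0.561, 0.595 and 0.932 CPM in NT+GV libraries (log2 fold change -1.25 ± 0.40, adjusted p = 0.00852), at 3 to 18 counts in PUT+GV libraries. MX2 in VK2 cells had 1.097, 1.36 and 1.15 CPM in PUT+GV libraries, against 5.39, 5.55 and 3.55 CPM in NT+GV libraries (log2 fold change -1.99 ± 0.41, adjusted p = 4.01e-04). The groups did not overlap, though the PUT+GV libraries of Endo cells were spread widely for MX2. TRIM22 in VK2 cells had 0.9899, 1.58 and 1.02 CPM in PUT+GV libraries, against 4.35, 3.83 and 4.03 CPM in NT+GV libraries (log2 fold change -1.76 ± 0.18, adjusted p = 5.81e-10). IFI44L in VK2 cells had 1.55, 2.0 and 1.46 CPM in PUT+GV libraries, against 5.22, 6.11 and 4.23 CPM in NT+GV libraries (log2 fold change -1.61 ± 0.26, adjusted p = 1.91e-05). CMPK2 in VK2 cells had 7, 4 and 2 counts in PUT+GV and 13, 8 and 15 counts in NT+GV libraries (adjusted p = 0.00669 by edgeR), too few to give a fold change here. The filter on low counts may have kept CMPK2 through groups in which it was high.

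In Ecto cells members of other roles fell or rose too. SP110, a nuclear body protein, had 12.4, 12.9 and 12.99 CPM in PUT+GV, against 21.7, 24.9 and 23.3 CPM in NT+GV (log2 fold change -0.87 ± 0.07, adjusted p = 3.47e-11). SAMD9L had 4.73, 3.77 and 4.24 CPM in PUT+GV, against 7.69, 7.53 and 7.71 CPM in NT+GV (log2 fold change -0.85 ± 0.12, adjusted p = 1.05e-06). IFIH1 had 14.8, 14 and 13.7 CPM in PUT+GV, against 24.8, 24.2 and 23.5 CPM in NT+GV (log2 fold change -0.77 ± 0.06, adjusted p = 1.56e-10). These fell, with no overlap between groups, while the next members rose. Levels of IRF7 were 55.02, 50.4 and 48.4 CPM in PUT+GV, against 19.1, 20.6 and 20.4 CPM in NT+GV (log2 fold change 1.36 ± 0.06, adjusted p = 4.30e-15). Those of IFITM1 were 2.37, 2.399 and 2.63 CPM in PUT+GV, against 1.09, 0.823 and 1.19 CPM in NT+GV (log2 fold change 1.25 ± 0.24, adjusted p = 6.57e-05). MX1 had 98.1, 90.98 and 99.7 CPM in PUT+GV, against 43.8, 43.1 and 43.2 CPM in NT+GV (log2 fold change 1.15 ± 0.06, adjusted p = 4.12e-14). All PUT+GV libraries were above all NT+GV libraries for these 3 genes. IFI27 also rose in Ecto cells, with 78.5, 77.3 and 69.3 CPM in PUT+GV, against 45.5, 43.1 and 44.1 CPM in NT+GV (log2 fold change 0.76 ± 0.07, adjusted p = 1.39e-09).

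Fewer members rose with PUT+GV in Endo and VK2 cells, and most by little. SAMD9 had 176, 165 and 162 CPM in PUT+GV, against 89.97, 91.7 and 93.9 CPM in NT+GV (log2 fold change 0.87 ± 0.05, adjusted p = 4.75e-15) in Endo cells. IRF7 had 35.5, 36.9 and 36.8 CPM in PUT+GV, against 22.6, 23.6 and 23.6 CPM in NT+GV (log2 fold change 0.64 ± 0.09, adjusted p = 1.64e-06) there. The 2 others that rose in Endo cells changed less. HERC5 had 54.03, 58.6 and 53.3 CPM in PUT+GV, against 49.95, 42.7 and 51.6 CPM in NT+GV (log2 fold change 0.20 ± 0.07, adjusted p = 0.0169). STAT2 had 47.6, 47.3 and 48.1 CPM in PUT+GV, against 44.1, 42.1 and 45.6 CPM in NT+GV (log2 fold change 0.12 ± 0.05, adjusted p = 0.0439). Without Endo NT+GV replicate 2, or without PUT+GV replicate 1 or 2, only 2 members rose in Endo cells. In VK2 cells SAMD9 had 86.6, 74.4 and 68.9 CPM in PUT+GV, against 51.4, 54.04 and 53.8 CPM in NT+GV (log2 fold change 0.53 ± 0.07, adjusted p = 1.02e-06). IRF7 in VK2 cells had 42.7, 46.4 and 49.3 CPM in PUT+GV, against 41.3, 39.7 and 33.8 CPM in NT+GV (log2 fold change 0.27 ± 0.07, adjusted p = 9.18e-04). ISG20, an exonuclease that degrades viral RNA, had 13.7, 13.9 and 14.8 CPM in PUT+GV, against 12.5, 12.97 and 12.1 CPM in NT+GV (log2 fold change 0.18 ± 0.07, adjusted p = 0.0425) in VK2 cells. Groups did not overlap for these members.

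Putrescine also lowered the members without bacteria. In PUT+noGV against NT+noGV libraries 36 of 39 fell and 0 rose in Endo cells (16.3% and 15.6% of all genes tested), with a median log2 fold change of -0.78 and 17 members lower by 2-fold or more (0.875% of all genes). The number that rose by edgeR was also 0 at an unadjusted p under 0.05 and in every alternative fit, DESeq2 included. In Ecto cells 24 fell and 4 rose (22.9% and 23.9%), and in VK2 cells 23 of 38 fell and 3 rose (23% and 22%). IFIT1 had 51.6, 54.7 and 60.7 CPM in PUT+noGV libraries, against 131, 125 and 135 CPM in NT+noGV libraries (log2 fold change -1.23 ± 0.07, adjusted p = 9.28e-11) in Endo cells. Its Ecto levels were 17.6, 15.8 and 17.1 CPM in PUT+noGV libraries, against 48.7, 42.1 and 44.4 CPM in NT+noGV libraries (log2 fold change -1.42 ± 0.09, adjusted p = 3.49e-12). In VK2 cells IFIT1 had 22.7, 23.6 and 25.5 CPM in PUT+noGV libraries, against 52.6, 50.9 and 59.96 CPM in NT+noGV libraries (log2 fold change -1.19 ± 0.12, adjusted p = 3.82e-07). IFIT1 was therefore lower in every PUT+noGV library of every line. IRF9 in Endo cells had 12.97, 14.3 and 16.3 CPM in PUT+noGV libraries, against 44.4, 46.97 and 50.4 CPM in NT+noGV libraries (log2 fold change -1.70 ± 0.10, adjusted p = 1.92e-10). ISG15 in VK2 cells had 24.7, 24.6 and 27.1 CPM in PUT+noGV libraries, against 56.1, 58.8 and 66.03 CPM in NT+noGV libraries (log2 fold change -1.25 ± 0.09, adjusted p = 5.50e-10). IRF7 in Ecto cells went against most other members, with 42.8, 41.9 and 41.2 CPM in PUT+noGV libraries, against 19.01, 18.4 and 19.8 CPM in NT+noGV libraries (log2 fold change 1.14 ± 0.06, adjusted p = 2.81e-13). These groups did not overlap. The 18 members that fell in all 3 lines, a pattern not counted over all genes, included IFIT1, IFIT2, IFIT3, ISG15, HERC5, OASL, RSAD2, IRF9 and STAT2. Fibroblast marker sums were again higher, at 34.7 to 36.7 CPM in PUT+noGV against 15.6 to 17.2 CPM in NT+noGV libraries of Ecto cells, 33.9 to 35.65 against 28.9 to 33.3 CPM in Endo cells and 38.55 to 42.1 against 24.5 to 26.3 CPM in VK2 cells, as were leukocyte marker sums (89.8 to 91.9 against 56.2 to 57.4 CPM, 44.1 to 50.1 against 37.8 to 41.03 CPM and 85.2 to 92.7 against 68.6 to 73.5 CPM in the same order of lines).

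The PUT effect was also compared between cells with and without GV. The interaction of PUT with GV, which is the PUT effect with GV less the PUT effect without GV, was higher for 16 and lower for 3 members in Ecto cells (14.4% and 12% of all genes tested), higher for 19 and lower for 3 in Endo cells (14.9% and 19.9%), and higher for 3 and lower for 11 in VK2 cells (9.82% and 17.8%). HERC5, the member with a higher interaction in all 3 lines, had 0.91 ± 0.07, 0.98 ± 0.09 and 0.44 ± 0.14 in Ecto, Endo and VK2 cells. For IFIT1 it was 0.94 ± 0.14, -0.08 ± 0.13 and 0.10 ± 0.19. Leaving out VK2 NT+noGV replicate 2 left 7 of the 11 lower calls in number, and the 3 lower in Endo cells ranged from 1 to 5.

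Spermidine before GV lowered members in every line and raised almost none. In SPD+GV against NT+GV libraries 14 of 39 fell and 1 rose in Ecto cells (6.6% and 6.53% of all genes tested), 19 fell and 0 rose in Endo cells (8.71% and 5.22%), and 20 of 38 fell and 0 rose in VK2 cells (7.87% and 4.84%). For the rises in Endo and VK2 cells the count was also 0 at an unadjusted p under 0.05 and in every alternative fit, DESeq2 included. The count of 14 in Ecto cells was 5 without NT+GV replicate 1, 6 without NT+GV replicate 3, 8 without SPD+GV replicate 1 and 6 without SPD+GV replicate 2. IFI44, IFIT1, IRF9, OAS2, OAS3, OASL and UBE2L6 fell in all 3 lines. Leukocyte marker sums in SPD+GV against NT+GV libraries were 83.1 to 86.5 against 71.98 to 74.2 CPM for Ecto, 84.7 to 86.5 against 77.4 to 80.8 CPM for Endo and 118 to 122 against 111 to 121 CPM for VK2 cells, and fibroblast marker sums overlapped in each line.

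IFIT1 had 7.04, 5.54 and 6.27 CPM in SPD+GV, against 10.5, 7.44 and 9.68 CPM in NT+GV (log2 fold change -0.55 ± 0.11, adjusted p = 0.00158) in Ecto cells. In Endo cells IFIT1 had 14.5, 13.9 and 12.6 CPM in SPD+GV, against 22.6, 18.8 and 25.7 CPM in NT+GV (log2 fold change -0.71 ± 0.10, adjusted p = 4.21e-05). Its levels in VK2 cells were 14.3, 12.01 and 14.5 CPM in SPD+GV, against 23.7, 19.9 and 22.3 CPM in NT+GV (log2 fold change -0.70 ± 0.14, adjusted p = 0.00351). Each SPD+GV library lay below each NT+GV library of its line. IFIT2 had 8.76, 6.74 and 8.18 CPM in SPD+GV, against 12.8, 9.82 and 11.5 CPM in NT+GV (log2 fold change -0.53 ± 0.11, adjusted p = 0.00287) in Ecto cells. Endo cells had IFIT2 at 22.01, 20.2 and 16.3 CPM in SPD+GV, against 35.9, 28.2 and 36.9 CPM in NT+GV (log2 fold change -0.78 ± 0.11, adjusted p = 1.03e-04). IFIT3 in Endo cells had 16.5, 16.4 and 14.5 CPM in SPD+GV, against 28.2, 20.1 and 25.8 CPM in NT+GV (log2 fold change -0.64 ± 0.09, adjusted p = 8.59e-05). These IFIT genes, which were lower in NT+GV than in NT+noGV libraries, were thus lower again with SPD+GV.

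Members outside the IFIT family also fell with SPD+GV. RSAD2 in Ecto cells had 0.9104, 0.70 and 1.25 CPM in SPD+GV, against 1.38, 1.31 and 1.496 CPM in NT+GV (log2 fold change -0.55 ± 0.18, adjusted p = 0.0392). CMPK2 in Ecto cells had 2.84, 2.39 and 2.94 CPM in SPD+GV, against 3.64, 3.48 and 3.87 CPM in NT+GV (log2 fold change -0.43 ± 0.13, adjusted p = 0.0276). XAF1 in Endo cells had 2.79, 2.78 and 2.53 CPM in SPD+GV, against 3.73, 3.45 and 4.97 CPM in NT+GV (log2 fold change -0.58 ± 0.16, adjusted p = 0.0143). Groups did not overlap here either. In VK2 cells ISG15 had 24.7, 25.7 and 22.3 CPM in SPD+GV, against 47.3, 39.2 and 36.1 CPM in NT+GV (log2 fold change -0.75 ± 0.09, adjusted p = 2.17e-05). IFI44L had 1.91, 2.67 and 1.79 CPM in SPD+GV, against 5.22, 6.11 and 4.23 CPM in NT+GV (log2 fold change -1.27 ± 0.25, adjusted p = 0.00217) there. TRIM22 had 2.22, 2.97 and 2.12 CPM in SPD+GV, against 4.35, 3.83 and 4.03 CPM in NT+GV (log2 fold change -0.74 ± 0.17, adjusted p = 0.00272), and IRF7, the 1 member that rose in Ecto cells, had 26.3, 27.4 and 24.5 CPM in SPD+GV, against 19.1, 20.6 and 20.4 CPM in NT+GV (log2 fold change 0.38 ± 0.06, adjusted p = 3.20e-04).

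Without bacteria SPD gave few calls, and in Endo cells their number depended on the fit. In SPD+noGV against NT+noGV libraries HERC5 fell in Ecto cells (log2 fold change -0.23 ± 0.05, adjusted p = 0.0479) and IRF9 (log2 fold change -0.41 ± 0.08, adjusted p = 0.00562) and ISG15 (log2 fold change -0.40 ± 0.09, adjusted p = 0.0385) fell in VK2 cells, while no member passed in Endo cells and none rose in any line by edgeR's test (0.164%, 0.08% and 0.222% of all genes fell and 0.139%, 0.101% and 0.238% rose in Ecto, Endo and VK2 cells). At an unadjusted p under 0.05, 21 members were lower in Endo cells, and 4, 0 and 0 were higher in Ecto, Endo and VK2 cells. DESeq2 gave 7 that fell in Endo cells and 1 that rose in Ecto cells, and with a replicate block or without the filter on low counts edgeR gave 8 and 9 that fell in Endo cells. The median log2 fold change of the members was -0.15 in VK2, -0.07 in Ecto and -0.19 in Endo cells (there from -0.79 to 0.01). Leukocyte marker sums were 64.2 to 82.2 CPM in SPD+noGV against 56.2 to 57.4 CPM in NT+noGV libraries of Ecto cells. The interaction of SPD with GV passed for 0 members in Ecto cells, 4 in Endo cells, all lower, and 0 in VK2 cells (1.59%, 2.31% and 0.244% of all genes were lower and 1.54%, 1.14% and 0.108% higher). At an unadjusted p under 0.05 the SPD interaction was lower for 9 and higher for 1 member in Ecto cells and lower for 11 and higher for 0 in VK2 cells, and DESeq2 gave 3 and 1 in Ecto cells and 0 and 0 in VK2 cells.

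Spermine before GV raised the members in Endo cells, where 32 of 39 rose and 1 fell in SPM+GV against NT+GV libraries (21.9% and 21.1% of all genes tested). The median log2 fold change there was 0.56, and 7 members rose by 2-fold or more (3.83% of all genes). In VK2 cells 14 of 38 rose and 5 fell (27.9% and 30.3%), and in Ecto cells 8 rose and 16 fell (28.5% and 27.5%), so neither line moved as a block. IFI27, IFITM1, IFITM3 and IRF7 rose in all 3 lines, while DTX3L, IFIT2, IFIT5, OAS3, PARP9, SAMD9 and SP110 fell in Ecto cells and rose in both others. Leukocyte marker sums were lower in SPM+GV than in NT+GV libraries, at 55.8 to 61.02 CPM against 71.98 to 74.2 CPM in Ecto cells, 57.7 to 63.2 against 77.4 to 80.8 CPM in Endo cells and 77.7 to 80.4 against 111 to 121 CPM in VK2 cells. Fibroblast marker sums overlapped in Ecto and Endo cells and were 40.5 to 41.8 CPM in SPM+GV against 34.7 to 38.2 CPM in NT+GV libraries of VK2 cells.

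IFITM1 had 24.8, 33.3 and 25.1 CPM in SPM+GV libraries, against 7.19, 8.92 and 10.1 CPM in NT+GV libraries (log2 fold change 1.66 ± 0.14, adjusted p = 6.23e-09) in Endo cells. MX2 had 1.77, 2.74 and 1.97 CPM in SPM+GV libraries, against 0.561, 0.595 and 0.932 CPM in NT+GV libraries (log2 fold change 1.63 ± 0.33, adjusted p = 1.36e-04). IFI44L had 32.8, 42.2 and 37.2 CPM in SPM+GV libraries, against 12.1, 11.7 and 17.96 CPM in NT+GV libraries (log2 fold change 1.42 ± 0.13, adjusted p = 2.97e-08). All SPM+GV libraries were above all NT+GV libraries. IFI6 had 107, 133 and 106 CPM in SPM+GV libraries, against 38.6, 40.7 and 55.5 CPM in NT+GV libraries (log2 fold change 1.36 ± 0.16, adjusted p = 1.62e-06) in Endo cells. ISG15 in Endo cells had 102, 124 and 98.6 CPM in SPM+GV libraries, against 59.98, 55.6 and 61.1 CPM in NT+GV libraries (log2 fold change 0.88 ± 0.08, adjusted p = 2.96e-08). MX1 in Endo cells had 93.8, 124 and 106 CPM in SPM+GV libraries, against 50.4, 43.01 and 57.01 CPM in NT+GV libraries (log2 fold change 1.11 ± 0.14, adjusted p = 4.55e-06). Replicate 2 was the highest SPM+GV library for these genes, and the groups stayed apart. ISG20 was the member that fell in Endo cells, with 19.6, 20.4 and 17.4 CPM in SPM+GV libraries, against 24.3, 23.4 and 23.6 CPM in NT+GV libraries (log2 fold change -0.31 ± 0.06, adjusted p = 7.60e-05).

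In VK2 cells IFI27 had 8.59, 8.59 and 8.82 CPM in SPM+GV, against 3.49, 3.69 and 3.46 CPM in NT+GV (log2 fold change 1.29 ± 0.15, adjusted p = 4.37e-09). IFIT2 in VK2 cells had 27.9, 22.4 and 21.99 CPM in SPM+GV, against 14.4, 15.3 and 15.5 CPM in NT+GV (log2 fold change 0.69 ± 0.10, adjusted p = 4.92e-06). IFITM1 in VK2 cells had 10.9, 12.8 and 12.9 CPM in SPM+GV, against 7.95, 8.54 and 7.32 CPM in NT+GV (log2 fold change 0.62 ± 0.12, adjusted p = 2.46e-05). These rose with no overlap, as did IFI6, with 64.4, 62.7 and 58.7 CPM in SPM+GV, against 41.3, 45.7 and 36.96 CPM in NT+GV (log2 fold change 0.59 ± 0.12, adjusted p = 3.59e-04). The 4 largest drops in VK2 cells were small. HERC5 had 19.8, 16.5 and 18.7 CPM in SPM+GV, against 30.5, 22.2 and 23.8 CPM in NT+GV (log2 fold change -0.48 ± 0.11, adjusted p = 7.12e-04). STAT2 had 60.5, 63.7 and 57.04 CPM in SPM+GV, against 78.7, 78.03 and 72.2 CPM in NT+GV (log2 fold change -0.33 ± 0.05, adjusted p = 1.81e-07). The drops of ISG20 and HERC6 were smaller. ISG20 had 11.6, 10.7 and 10.1 CPM in SPM+GV, against 12.5, 12.97 and 12.1 CPM in NT+GV (log2 fold change -0.21 ± 0.08, adjusted p = 0.02901). HERC6 had 23.3, 21.6 and 20.3 CPM in SPM+GV, against 24.3, 24.4 and 25.01 CPM in NT+GV (log2 fold change -0.17 ± 0.07, adjusted p = 0.0263). The count of 5 that fell in VK2 cells was 3 without SPM+GV replicate 2 or 3.

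Ecto cells gave drops and rises of similar size. SAMD9L had 4.41, 3.52 and 3.35 CPM in SPM+GV, against 7.69, 7.53 and 7.71 CPM in NT+GV (log2 fold change -1.02 ± 0.12, adjusted p = 9.78e-08). CMPK2 had 1.76, 2.06 and 2.21 CPM in SPM+GV, against 3.64, 3.48 and 3.87 CPM in NT+GV (log2 fold change -0.86 ± 0.13, adjusted p = 5.80e-06) in Ecto cells. RSAD2 in Ecto cells had 0.95, 0.888 and 0.892 CPM in SPM+GV, against 1.38, 1.31 and 1.496 CPM in NT+GV (log2 fold change -0.62 ± 0.18, adjusted p = 0.00576). These fell, as did SAMD9, with 46.8, 41.6 and 37.7 CPM in SPM+GV, against 62.4, 66.8 and 61.02 CPM in NT+GV (log2 fold change -0.59 ± 0.09, adjusted p = 1.16e-05). IFITM1 in Ecto cells had 2.85, 2.31 and 2.104 CPM in SPM+GV, against 1.09, 0.823 and 1.19 CPM in NT+GV (log2 fold change 1.22 ± 0.24, adjusted p = 9.80e-05). IFI27 in Ecto cells had 73.3, 75.4 and 70.2 CPM in SPM+GV, against 45.5, 43.1 and 44.1 CPM in NT+GV (log2 fold change 0.72 ± 0.07, adjusted p = 4.15e-09). All SPM+GV libraries were above all NT+GV libraries for both. IRF7 had 30.9, 29.8 and 30.4 CPM in SPM+GV, against 19.1, 20.6 and 20.4 CPM in NT+GV (log2 fold change 0.60 ± 0.06, adjusted p = 1.25e-08) and ISG15 had 22.8, 21.2 and 20.9 CPM in SPM+GV, against 13.97, 13.7 and 15.4 CPM in NT+GV (log2 fold change 0.59 ± 0.10, adjusted p = 1.90e-05) in Ecto cells. ISG15 thus fell with GV in Ecto cells and was higher with SPM+GV than with NT+GV, though still below the 39.9, 37.9 and 38.6 CPM of NT+noGV libraries.

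Without bacteria SPM lowered more members than it raised. In SPM+noGV against NT+noGV libraries 19 fell and 1 rose in Ecto cells (12.2% and 11.3% of all genes tested), 6 fell and 1 rose in Endo cells (10.1% and 8.02%), and 9 of 38 fell and 6 rose in VK2 cells (15.6% and 17.4%). HERC5, IRF9, ISG15 and ISG20 fell in all 3 lines and BST2 rose in all 3. ISG15 had 22.2, 23.3 and 22.9 CPM in SPM+noGV libraries, against 39.9, 37.9 and 38.6 CPM in NT+noGV libraries (log2 fold change -0.77 ± 0.09, adjusted p = 1.44e-06) in Ecto cells. OASL in Ecto cells had 14.9, 15.7 and 15.5 CPM in SPM+noGV libraries, against 31.2, 26.9 and 29.2 CPM in NT+noGV libraries (log2 fold change -0.93 ± 0.08, adjusted p = 1.68e-09). IFIT1 in Ecto cells had 25.2, 25.2 and 26.7 CPM in SPM+noGV libraries, against 48.7, 42.1 and 44.4 CPM in NT+noGV libraries (log2 fold change -0.81 ± 0.09, adjusted p = 1.71e-07), while it did not pass in Endo (-0.13 ± 0.07) or VK2 cells (-0.13 ± 0.12). No SPM+noGV library reached a NT+noGV library for these 3 genes in Ecto cells. The rise of BST2 in Ecto cells passed in none of the fits without 1 library of either group. Leukocyte marker sums were lower in SPM+noGV than in NT+noGV libraries, at 42.4 to 44.2 against 56.2 to 57.4 CPM for Ecto, 33.4 to 36.2 against 37.8 to 41.03 CPM for Endo and 60.9 to 64.03 against 68.6 to 73.5 CPM for VK2 cells.

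The SPM effect on Endo cells was larger with bacteria than without. The interaction of SPM with GV was higher for 31 and lower for 0 of 39 members in Endo cells (14.1% and 10.2% of all genes tested), higher for 9 and lower for 2 of 38 in VK2 cells (17% and 21.9%), and higher for 10 and lower for 7 in Ecto cells (19% and 17.3%). The count of 0 lower in Endo cells was also 0 at an unadjusted p under 0.05, by DESeq2 and in every other fit. IFI27, IFITM1, IRF7, IRF9 and ISG15 were higher in all 3 lines. For ISG15 the interaction was 1.36 ± 0.14, 1.12 ± 0.11 and 0.43 ± 0.13 in Ecto, Endo and VK2 cells, and for IRF9 it was 0.70 ± 0.09, 1.17 ± 0.13 and 0.44 ± 0.11. Of the 7 lower in Ecto cells 4 were left in number without NT+noGV replicate 1, SPM+GV replicate 2 or SPM+GV replicate 3, and the 2 lower in VK2 cells were 0 without NT+noGV replicate 2 or SPM+noGV replicate 1.

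Spermine and spermidine differ by 1 aminopropyl group, which spermine has in addition, and were given at the same 400 µM for the same time, so they can be set against each other. The 6 pairs compared were SPM against SPD with and without GV in the 3 lines, 232 member tests in all, adjusted over all genes within each pair. In SPM+GV against SPD+GV libraries 35 of 39 members were higher and 0 lower in Endo cells (23.4% and 21.2% of all genes tested), 29 of 38 were higher and 0 lower in VK2 cells (25.1% and 27.5%), and 12 were higher and 10 lower in Ecto cells (27.6% and 26.2%). The counts in Ecto cells are thus near the shares of all genes. At 2-fold or more the higher members numbered 15 in Endo (3.05% of all genes) and 4 in VK2 cells (6.73%). The count of 0 lower in Endo cells was 1 without SPM+GV replicate 2 and 1 at an unadjusted p under 0.05, and that in VK2 cells was 0 at an unadjusted p under 0.05 and in every fit, DESeq2 included. The 10 lower in Ecto cells were 6 without SPD+GV replicate 1 or SPM+GV replicate 2 and 6 by DESeq2.

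**Figure D5:**
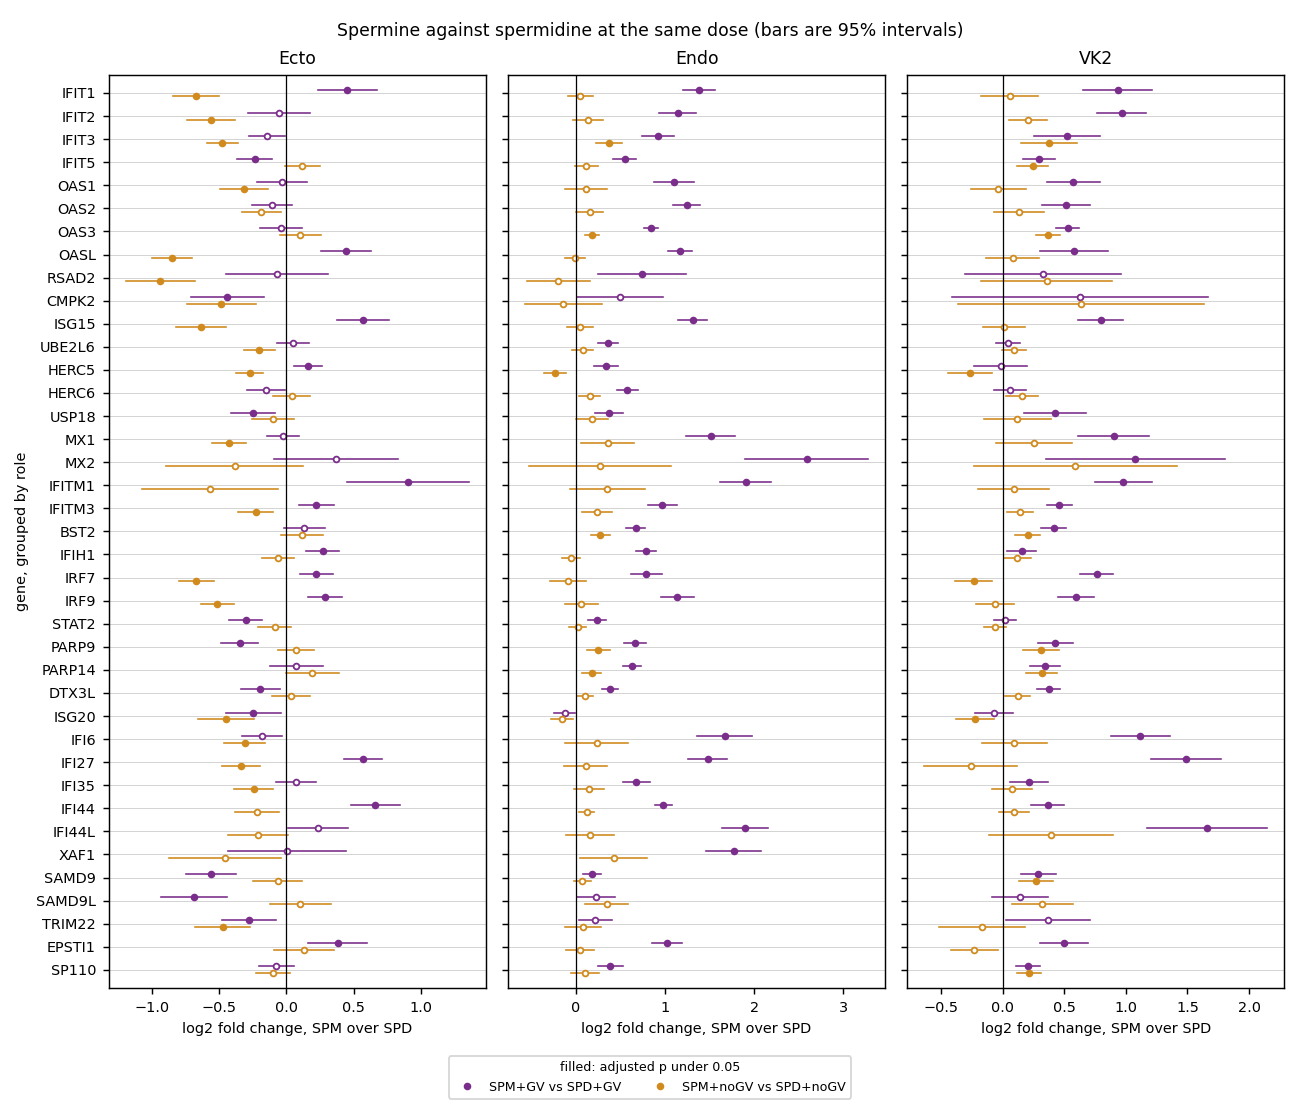
Log2 fold change of SPM over SPD for each tested member, with 95% intervals, with GV and without GV, 1 panel per line. With GV the points of Endo cells are to the right of 0 for 35 members that passed, and without GV 5 passed to the right.

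IFIT1, ISG15 and IFITM1 were among the 11 members that were higher with SPM+GV in all 3 lines, a pattern not counted over all genes. IFIT1 had 35.7, 35.2 and 36.1 CPM in SPM+GV, against 14.5, 13.9 and 12.6 CPM in SPD+GV (log2 fold change 1.38 ± 0.09, adjusted p = 9.71e-11) in Endo cells. In VK2 cells IFIT1 had 33.01, 21.5 and 22.9 CPM in SPM+GV, against 14.3, 12.01 and 14.5 CPM in SPD+GV (log2 fold change 0.93 ± 0.14, adjusted p = 2.42e-05). In Ecto cells it had 8.89, 8.81 and 8.13 CPM in SPM+GV, against 7.04, 5.54 and 6.27 CPM in SPD+GV (log2 fold change 0.45 ± 0.11, adjusted p = 0.00143). No library overlapped between SPM+GV and SPD+GV, and the gap was widest in Endo cells. ISG15 had 102, 124 and 98.6 CPM in SPM+GV, against 41.9, 47.02 and 42.2 CPM in SPD+GV (log2 fold change 1.31 ± 0.08, adjusted p = 1.22e-10) in Endo cells. Its VK2 levels were 44.6, 39.8 and 41.5 CPM in SPM+GV, against 24.7, 25.7 and 22.3 CPM in SPD+GV (log2 fold change 0.79 ± 0.09, adjusted p = 4.56e-07). ISG15 in Ecto cells had 22.8, 21.2 and 20.9 CPM in SPM+GV, against 15.6, 14.3 and 13.8 CPM in SPD+GV (log2 fold change 0.57 ± 0.10, adjusted p = 3.40e-05). The groups did not overlap. IFI44L in VK2 cells had 8.89, 5.03 and 6.14 CPM in SPM+GV, against 1.91, 2.67 and 1.79 CPM in SPD+GV (log2 fold change 1.66 ± 0.25, adjusted p = 1.11e-05). IFI27 in VK2 cells had 8.59, 8.59 and 8.82 CPM in SPM+GV, against 2.78, 4.03 and 2.44 CPM in SPD+GV (log2 fold change 1.49 ± 0.15, adjusted p = 3.08e-10). The largest difference downward that passed was in Ecto cells, where SAMD9L had 4.41, 3.52 and 3.35 CPM in SPM+GV, against 6.21, 6.27 and 5.69 CPM in SPD+GV (log2 fold change -0.69 ± 0.12, adjusted p = 4.59e-05). MX2 in VK2 cells passed although its SPM+GV and SPD+GV libraries overlapped, at 7.601, 5.31 and 3.36 CPM and 1.94, 4.48 and 1.37 CPM.

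Where a difference between SPM and SPD did not pass, the data allow a range of sizes. With GV the 95% intervals of the members that did not pass reached from -0.45 to 0.83 in Ecto (17 members), from -0.24 to 0.98 in Endo (4 members) and from -0.41 to 1.67 in VK2 cells (9 members). Without GV, in SPM+noGV against SPD+noGV libraries, 0 members were higher and 19 lower in Ecto cells (10.4% and 10% of all genes tested), 5 were higher and 1 lower in Endo cells (5.73% and 6.92%), and 8 were higher and 3 lower in VK2 cells (15.2% and 13.1%). The intervals of the others ran from -1.08 to 0.39 in Ecto (20 members), from -0.57 to 1.06 in Endo (33 members) and from -0.64 to 1.63 in VK2 cells (27 members). Without SPD+noGV replicate 3, or without the filter on low counts, 1 member was higher in Ecto cells, where 0 were higher at an unadjusted p under 0.05 and by DESeq2. Putrescine was given at 4 mM, so its values stand beside these without a comparison.

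The other genes of the pathway were read from lists fixed by name. Interferon genes themselves were hardly read. Of 10 ligand genes 2, 3 and 4 passed the filter on low counts in Ecto, Endo and VK2 cells, IFNW1 had 0 counts in every library, which allows up to 3 counts per library, and IFNB1 had 0 to 11 counts over all 72. IFNK, the interferon of keratinocytes, had 8, 9 and 9 counts in NT+GV and 3, 3 and 0 counts in NT+noGV libraries of Ecto cells (adjusted p = 0.0253 by edgeR), and it rose in Endo cells with 19, 24 and 19 against 8, 6 and 12 counts (adjusted p = 0.00435). IFNE, the interferon of the genital epithelium, fell in Endo (log2 fold change -0.50 ± 0.18, adjusted p = 0.0209) and VK2 cells (log2 fold change -0.77 ± 0.20, adjusted p = 0.00336). IFNL1, a type III interferon, fell in Endo cells at 3, 6 and 5 counts in NT+GV against 5, 16 and 17 counts in NT+noGV libraries (adjusted p = 0.02101 by edgeR). These IFNL1 groups overlapped. With SPM+GV against NT+GV, IFNK (log2 fold change 1.00 ± 0.30, adjusted p = 0.00527) and the type III interferon IFNL3, at 11, 8 and 9 against 0, 2 and 7 counts (adjusted p = 0.0192), rose in VK2 cells, and IFNE fell in Ecto cells (log2 fold change -0.46 ± 0.19, adjusted p = 0.0402). IFNL3 passed the filter on low counts in VK2 cells alone, where no library had more than 11 counts. The filter may have kept it through the SPM+GV group in which it was high, so its call gives no support for a rise. The same limit holds in Endo cells for IFNL1, with at most 17 counts, reached in NT+noGV libraries. It also holds there for IFNK, with at most 24 counts, reached in NT+GV libraries. Those 2 calls in Endo cells give no support for a change. Receptor chains and kinases were well read, and 3, 4 and 5 of 9 rose with GV in Ecto, Endo and VK2 cells while 1 fell in Ecto and 2 fell in Endo cells. Of all genes tested, 20.9%, 25.7% and 13.9% rose and 23.7%, 28.7% and 12.5% fell with GV in the same order of lines. IFNAR2, a chain of the type I receptor, rose in each line (0.39, 0.63 and 0.35). With SPM+GV against NT+GV, 7 of the 9 fell in Ecto cells, where 27.5% of all genes tested fell.

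Of 11 tested genes that sense nucleic acids or pass on that signal, 5 rose and 5 fell with GV in Ecto cells, 6 and 4 in Endo cells, and 4 and 1 in VK2 cells. The shares of all genes that rose and fell with GV were 20.9% and 23.7% in Ecto, 25.7% and 28.7% in Endo, and 13.9% and 12.5% in VK2 cells. RIGI, the sensor that OASL aids, fell in each line (-1.10 ± 0.08, -1.49 ± 0.08 and -0.79 ± 0.08), as IFIH1 did. IRF1, which binds the ISRE without STAT proteins, rose with GV in all 3 lines (0.84, 0.56 and 0.31) and further with SPM+GV against NT+GV (0.68, 1.30 and 1.68). Of 5 feedback inhibitors of interferon signalling 2 rose and 1 fell with GV in Ecto cells, 2 and 1 did so in Endo cells, and 3 rose in VK2 cells (median log2 fold changes 0.01, 0.09 and 0.18). SOCS1, one of them and an inhibitor of JAK kinases, rose with GV by 1.00 ± 0.14, 1.56 ± 0.21 and 1.60 ± 0.17 in Ecto, Endo and VK2 cells.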

How the data were processed

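RNA was read in 72 libraries, 3 for each of 8 groups in 3 cell lines, and the labels gave the group of every column (0 columns unused). The authors prepared stranded, ribosome-depleted total RNA libraries (CORALL kit), quantified them with Salmon and summed to genes with tximeta on annotation release 44, with GRCh38.p13 named as the build. The deposited values are the authors' estimated counts per gene, whole numbers and not normalized. The use of the molecular identifiers to remove duplicates is not given in the sources used here. Copies such as IFITM1 and IFITM3 may share reads.

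Genes were filtered with filterByExpr, scaled by TMM and tested with edgeR 4.0.16 in R 4.3.3 (robust quasi-likelihood fit, two-sided, 1 model of 24 libraries and 8 groups per line, no replicate block), with 19459, 18741 and 18474 genes tested in Ecto, Endo and VK2 cells. Lines were compared in 1 model of 72 libraries (21195 genes). The alternatives were DESeq2 1.42.0, edgeR with DESeq2 size factors, no filter on low counts, a replicate block, each library left out in turn, and 250 bases before the start alone for the promoter search. The filter is the one that kept XAF1 out of the test in VK2 cells. Interval bounds are 95% bounds made from the SE.

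On counts simulated from the Ecto libraries the NT+GV test recovered 83 of 100 genes shifted by 1 on the log2 scale and 93 of 100 shifted by 2, with 12 false calls among 18211 genes. The simulation gave every gene the same spread and shifted no other gene. In the real Ecto libraries 20.9% of genes rose and 23.7% fell with GV. The simulated counts are thus a check of the code and not error rates for these data. Values per library are given for the members with the 4 largest rises and the 4 largest drops that passed, per line, in NT+GV against NT+noGV and each polyamine+GV against NT+GV, and for members named beside them. Pathway genes are given as counts per list, with values for a few of those with the smallest adjusted p and for others named after their values were seen. The members and lists were chosen with earlier results of these data known. Figures were drawn with matplotlib 3.10.9 in Python 3.11.15.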

Additional observations from a re-analysis of the deposited data

Results flagged for a closer look

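The response of the members to GV differed between lines by the interaction term of the model of all 72 libraries (edgeR's quasi-likelihood test, adjusted p under 0.05). It differed for 23 members between Ecto and Endo cells, for 25 between Ecto and VK2 cells and for 15 between Endo and VK2 cells. Of all genes tested, 13.5% were higher and 14.5% lower in the first of these comparisons, 11.9% and 15.6% in the second, and 11.3% and 14.4% in the last. In 11 members the calls of NT+GV against NT+noGV went in opposite directions in at least 1 pair of lines. The share of all genes with such calls was not counted.

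Within a line, the effect of a polyamine differed between cells with and without GV by the interaction term. For PUT this held for 19, 22 and 14 members of Ecto, Endo and VK2 cells, where 14.4%, 14.9% and 9.82% of all genes tested were higher and 12%, 19.9% and 17.8% lower. For SPM it held for 17, 31 and 11 members, where 19%, 14.1% and 17% of all genes were higher and 17.3%, 10.2% and 21.9% lower. The share of members is thus below that of all genes for SPM in VK2 cells. For SPD it held for 4 members in Endo cells (1.14% of all genes were higher and 2.31% lower). The groups in these tests hold 3 libraries each, and the interaction tests of a line share their NT+GV and NT+noGV libraries.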

How the results depend on the processing

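The values rest on 3 libraries per group that may not be separate cultures, on estimated counts whose split between near-identical genes is uncertain, and on whole-well RNA. Counting limits MX2, CMPK2 and the interferon ligands, which had few counts. No member test that passed in the main fit reversed its direction in any alternative fit. Changes of direction among tests that did not pass were not counted. Of 1626 member tests, 1556 kept their call (higher, lower or not passed) with DESeq2, 1597 with DESeq2 size factors in edgeR, 1527 without the filter on low counts and 1571 with a replicate block, and 11918 of 12546 kept it when 1 library was left out. A test without an adjusted p in the alternative was counted as kept. The replicate numbers pair nothing in the labels, and same-numbered libraries correlated little (mean r 0.015, 0.034 and 0.022 in Ecto, Endo and VK2 cells). In these lines 16, 21 and 18 of 24 libraries correlated best with their own number among the 3 numbers. Some weak structure shared by number may thus be present, and the main fit holds no replicate block for it.

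Counts of members moved as follows. Without the filter, SPD+GV against NT+GV in Ecto cells had 2 higher, SPD+noGV against NT+noGV had 4 lower in Ecto and 9 lower in Endo cells, SPM+noGV against NT+noGV in Endo cells had 2 higher, SPM+noGV against SPD+noGV had 1 higher in Ecto and 10 higher in Endo cells, the SPD interaction had 2 lower in Ecto and 4 lower in VK2 cells, and the SPM interaction had 1 lower in VK2 cells. With DESeq2, SPD+noGV against NT+noGV had 1 higher in Ecto and 7 lower in Endo cells, SPM+GV against SPD+GV had 6 lower in Ecto cells, the PUT interaction had 5 lower in Ecto cells, the SPD interaction had 1 higher and 3 lower in Ecto cells, SPM+noGV against SPD+noGV had 8 higher in Endo cells, SPM+GV against NT+GV had 3 lower and the SPM interaction 0 lower in VK2 cells, and the GV response of Endo against VK2 cells had 1 higher. With DESeq2 size factors in edgeR, SPD+noGV against NT+noGV had 0 lower in Ecto and 1 lower in Endo cells, the PUT interaction had 5 lower in Ecto cells and SPM+GV against NT+GV had 3 lower in VK2 cells. With the replicate block, the SPD interaction had 1 higher and 2 lower in Ecto cells, SPD+noGV against NT+noGV had 8 lower in Endo and 1 lower in VK2 cells, and SPM+noGV against SPD+noGV had 8 higher in Endo cells. The causes were not tested.

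Leaving out 1 library in turn gave these ranges. The GV response was higher for 0 to 1 members in Ecto against VK2 cells and for 0 to 1 in Endo against VK2 cells. NT+GV against NT+noGV had 0 to 1 higher in Ecto cells, and PUT+GV against NT+GV had 2 to 3 higher in Endo cells. SPD+GV against NT+GV had 5 to 11 lower in Ecto cells. SPD+noGV against NT+noGV had 0 to 2 higher and 0 to 1 lower in Ecto cells and 0 to 2 lower in VK2 cells. SPM+GV against NT+GV had 3 to 7 lower in VK2 cells, and SPM+GV against SPD+GV had 6 to 9 lower in Ecto and 0 to 1 lower in Endo cells. SPM+noGV against NT+noGV had 0 higher in Ecto cells in each fit, and SPM+noGV against SPD+noGV had 0 to 1 higher in Ecto, 0 to 1 lower in Endo and 0 to 2 lower in VK2 cells. The PUT interaction had 1 to 5 lower in Endo and 7 to 11 lower in VK2 cells, the SPD interaction had 0 to 1 higher and 0 to 2 lower in Ecto cells and 0 to 1 higher and 2 to 5 lower in Endo cells, and the SPM interaction had 4 to 8 lower in Ecto and 0 to 3 lower in VK2 cells.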

Other observations

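Gene lists outside the 39 members gave other counts. All 10 NF-kB target genes listed, among them the inhibitor gene NFKBIA and the chemokine gene CXCL8, rose with GV in NT cells of each line. Of all genes tested, 20.9%, 25.7% and 13.9% rose with GV in Ecto, Endo and VK2 cells, and 23.7%, 28.7% and 12.5% fell. With PUT+GV against NT+GV 8 of these 10 fell in Ecto cells (24.9% of all genes), 7 fell and 1 rose in Endo cells (28.2% and 27.9%), and 6 rose and 2 fell in VK2 cells (29% and 31.4%). With SPM+GV against NT+GV, 10 rose in VK2 cells (27.9% of all genes) and 9 in each of Ecto and Endo cells (28.5% and 21.9%). Of 12 antigen presentation genes 8 rose and 3 fell with GV in Ecto cells, and all 12 rose in Endo and VK2 cells. HLA-B, a class I heavy chain with near-identical relatives that may share its reads, rose by 0.61 ± 0.05, 1.52 ± 0.05 and 0.79 ± 0.04 on the log2 scale in Ecto, Endo and VK2 cells, and TAP1, the peptide transporter, by 0.53 ± 0.05, 1.13 ± 0.04 and 0.71 ± 0.05.

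The guanylate-binding proteins, GTPases that attack the vacuoles and membranes of microbes, were split by line. With GV 1 of 5 fell in Ecto cells (23.7% of all genes fell), 4 of 5 rose in Endo cells (25.7% rose) and 4 of 4 tested rose in VK2 cells (13.9% rose). The log2 fold changes of GBP1 were -0.25 ± 0.07, 1.02 ± 0.09 and 1.45 ± 0.10 for Ecto, Endo and VK2 cells. With SPM+GV against NT+GV 2 of 5 rose and 1 fell in Ecto cells, 1 rose and 1 fell in Endo cells (median log2 fold change -0.05), and 2 of 4 rose in VK2 cells. Of all genes, 28.5% rose and 27.5% fell in Ecto cells, 21.9% and 21.1% did so in Endo cells, and 27.9% rose in VK2 cells. The counts in Endo cells are thus near the shares of all genes. GBP2 rose in each line, by 3.72 ± 0.22, 2.44 ± 0.22 and 2.42 ± 0.25. GBP2 had 14.01, 22.3 and 13.8 CPM in SPM+GV, against 1.38, 1.31 and 1.101 CPM in NT+GV libraries of Ecto cells, with no overlap.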
